A study of Mus musculus with 12 samples.

Results

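B-lineage progenitor genes were examined in the polyA RNA of whole fetal livers of mice. The group holds 9 genes, chosen by their symbols: Cd79a, Cd79b, Vpreb1, Vpreb3, Igll1, Ebf1, Pax5, Rag1 and Rag2. All 9 have a row among the 30743 gene rows of the deposited table. The livers came from 12 male C57BL/6J fetuses at 15 ± 0.5 dpc. The 6 control fetuses were carried by dams fed a 13.5 kcal% fat diet, and the 6 HFD fetuses by dams fed a 60 kcal% fat diet, in both cases for 12 to 14 weeks. The control diet was a rodent chow and the HFD came from a different maker, so fat content and diet source cannot be told apart. The labels name no transgene or deletion. The question behind the series was how maternal HFD and obesity affect blood formation in the fetus.

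The value used for each gene is the authors' average log2 CPM (reads scaled to a common library total, on a log2 scale) over all 12 livers. No value per liver was used, so the levels have no SD. The authors' own columns comparing the diets were left out by choice, and control and HFD livers are not compared here. What the data do give is the level of each B-lineage gene in livers of this age, with the counting error of its reads. RNA of whole liver was measured, so fewer cells of a type and less RNA per cell cannot be told apart.

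The fetal liver is the main site of B-cell formation before birth. Progenitors that have begun B-lineage commitment express the transcription factors EBF1 and PAX5, which activate B-cell genes and hold back those of other lineages. The RAG1 and RAG2 proteins together cut the immunoglobulin genes so that their segments can be joined. Once a heavy chain is made, it is carried to the surface with the surrogate light chain, formed by the Vpreb1 (or Vpreb2) and Igll1 products. The signal of this pre-B-cell receptor passes through the chains encoded by Cd79a and Cd79b.

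A stretch of sequence is shown first because the Vpreb1 level depends on telling it from its near-identical paralog. The coding sequences of Vpreb1 and its paralog Vpreb2, each 426 bases long, differed at 9 positions (97.9% identity), and the longest run without a difference was 196 bases. Coding bases 268 to 387 hold 6 of these differences, which are in capitals. In GRCm38 the stretch lies in coding exons at chr16:16868638-16868757 on the minus strand for Vpreb1 and at chr16:17980919-17981038 on the plus strand for Vpreb2.
Vpreb1: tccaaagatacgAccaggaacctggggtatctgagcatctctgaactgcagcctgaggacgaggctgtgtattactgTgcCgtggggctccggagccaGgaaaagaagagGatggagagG
Vpreb2: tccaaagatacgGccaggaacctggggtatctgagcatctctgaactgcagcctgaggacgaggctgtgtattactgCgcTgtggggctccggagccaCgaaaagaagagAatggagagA

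The promoters of Cd79a and Rag1 are shown because these are the members with a single annotated transcript. The windows are the 250 bases before the RefSeq start in GRCm38.p6, written 5′ to 3′ on the gene's strand. Capitals mark matches, on either strand, to the E-boxes CACCTG and CAGCTG, the RUNX core TGTGGT and the ETS core GGAAGT, letters bound by families of factors that act in blood cells. The Cd79a stretch is chr7:24897247-24897496 on the plus strand, and that of Rag1 is chr2:101649533-101649782 on the minus strand. The GENCODE M21 model of Cd79a starts at chr7:24897381. The later part of the Cd79a stretch, with its ETS match, therefore lies inside that gene model.
Cd79a: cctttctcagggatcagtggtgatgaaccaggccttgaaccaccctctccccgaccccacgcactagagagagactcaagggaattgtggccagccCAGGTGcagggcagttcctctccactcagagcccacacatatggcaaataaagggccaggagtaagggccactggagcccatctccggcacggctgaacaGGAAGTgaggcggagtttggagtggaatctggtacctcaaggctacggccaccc
Rag1: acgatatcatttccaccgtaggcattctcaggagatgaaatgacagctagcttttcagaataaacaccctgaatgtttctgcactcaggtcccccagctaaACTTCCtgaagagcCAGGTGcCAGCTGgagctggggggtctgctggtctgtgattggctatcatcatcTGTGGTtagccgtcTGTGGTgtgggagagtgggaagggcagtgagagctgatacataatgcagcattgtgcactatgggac

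A row without any read has a value too, because edgeR adds a small prior count. Of the deposited rows, 11091 sat at that value, -2.71 on the log2 scale or 0.152 CPM. Levels in CPM are given here above it. With an assumed prior count of 2, which the sources do not give, the values could be turned back into reads, the smallest value above none being 0.984 reads: of the 3393 rows with up to 6 reads over all livers, 100% came within 0.1 of a whole read. The mean effective library was then 13129748 reads, and 1 read over the 12 livers was worth 0.00635 CPM. The libraries are known only as normalized sizes, so the depth of each liver is unknown. Intervals of levels are exact Poisson intervals of 95% on these reads, and those of ratios are exact binomial intervals of 95%. They cover counting error only, not the spread between livers, and PCR copies are not independent molecules.

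All 9 members had reads, 7046 in all, and 64.5% of them came from Rag1 and Cd79b. Above 1 CPM were 6 of the 9 members (66.7%), whereas 31.9% of all rows and 49.9% of the 19652 rows with reads passed that level. Cd79a, Cd79b, Vpreb1, Vpreb3, Pax5 and Rag1 passed. Igll1, Rag2 and Ebf1 did not. The CPM of the members spanned a 581-fold range, whose low end is Ebf1 with 4 reads. Without subtracting the value of genes without reads, the ends were 0.178 CPM for Ebf1 and 14.8 CPM for Rag1, a smaller range.

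**Figure D1:**
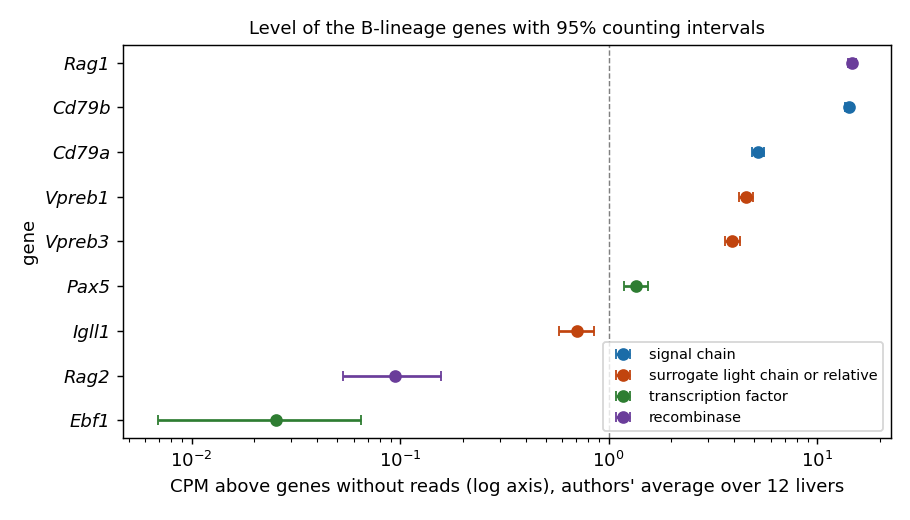
Level of each B-lineage gene in CPM above the value of genes without reads (log axis), as the authors' average over 12 livers; bars are 95% counting intervals, colours give the role and the dashed line is 1 CPM. Rag1 (14.7 CPM) and Cd79b (14.2 CPM) stand at the right, and Rag2 (0.0947 CPM) and Ebf1 (0.0253 CPM) at the left.

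The signal chains Cd79a and Cd79b were both above 1 CPM. Cd79a (chr7:24897381-24902197, plus strand) was measured at 5.21 CPM with an interval of 4.86 to 5.58 CPM, from 821 reads. Cd79b (chr11:106311341-106314762, minus strand) was measured at 14.2 CPM with an interval of 13.6 to 14.8 CPM, from 2230 reads. Of the Cd79a stretches of 50 bases, 8.31% also occur in transcripts of Gm32220, and none of those of Cd79b occurs in another gene. The products of Cd79a and Cd79b form a heterodimer. Per kb of annotated exons, Cd79b stood at 9.89 CPM and Cd79a at 3.58 CPM, a ratio of 2.77 with an exact counting interval of 2.55 to 3.00. By coding length the ratio was 2.08. Cd79b has 2 annotated transcripts, and 16.5% of its exon bases belong to only 1 of them. With those bases alone as the length the ratio was 16.8. That length shortens Cd79b and not Cd79a, so it could only raise the ratio and does not check its direction. The direction was the same by exon union and by coding length, while the size differed.

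Among the surrogate light chain genes, Vpreb1 (chr16:16868403-16870843, minus strand) was measured at 4.57 CPM, from 720 reads, with an interval of 4.24 to 4.92 CPM. Its partner Igll1 (chr16:16860671-16863985, minus strand), which encodes the constant-like part of the chain, was measured at 0.703 CPM, from 111 reads, with an interval of 0.580 to 0.848 CPM. These genes are neighbours on the same strand, 4417 bp apart. Per kb of exons Vpreb1 stood 11.7-fold above Igll1, with an interval of 9.57 to 14.4, and the ratio was 9.55 by coding length and 23.6 by the exon bases of 1 transcript only. Vpreb2 (chr16:17980428-17981273, plus strand), on the same chromosome but 1109584 bp away, was measured at 0.705 CPM, also from 111 reads. Per kb of exons Vpreb1 stood 4.11-fold above Vpreb2, with an interval of 3.36 to 5.06, and the ratio was 6.49 by coding length and 13.8 by the exon bases of 1 transcript only. Of all stretches of 50 bases in the Vpreb1 transcripts, 23.6% also occur in transcripts of Vpreb2 or of Top3b, which overlaps Vpreb1 on the opposite strand, and for Vpreb2 32.8% occur in Vpreb1. How the authors assigned such reads is not given in the sources used here, so the separate levels of Vpreb1 and Vpreb2 are uncertain.

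Vpreb3 (chr10:75943057-75949657, plus strand), a relative of Vpreb1 expressed in B-lineage precursors, was measured at 3.92 CPM, from 618 reads, with an interval of 3.62 to 4.24 CPM. None of its stretches of 50 bases occurs in another gene's transcripts. Per kb of exons it stood at 4.57 CPM, between Cd79b and Vpreb1 at 3.81 CPM.

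The transcription factors lay far apart. Pax5 (chr4:44524757-44710487, minus strand), which fixes the B-cell identity of a progenitor, was measured at 1.36 CPM, from 214 reads, with an interval of 1.18 to 1.55 CPM. Ebf1 (chr11:44617317-45008091, plus strand), which acts with and ahead of it in early B-lineage cells, was measured at 0.0253 CPM with an interval of 0.0069 to 0.065 CPM, from 4 reads over the 12 livers. Per kb of exons Pax5 stood 59.0-fold above Ebf1, with an interval of 22.7 to 218. The ratio was 81.0 by coding length and 47.0 by the exon bases of 1 transcript only. Of the Pax5 stretches of 50 bases, 7.02% also occur in transcripts of the neighbours 5730488B01Rik and Gm12462.

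The recombinase pair differed in the same manner. Rag1 (chr2:101638282-101649501, minus strand) was measured at 14.7 CPM, from 2313 reads, with an interval of 14.1 to 15.3 CPM. Rag2 (chr2:101624718-101632529, plus strand) was measured at 0.0947 CPM, from 15 reads, with an interval of 0.0533 to 0.157 CPM. Both proteins are needed for cutting, and their genes lie tail to tail, 5752 bp apart. Per kb of exons Rag1 stood 79.9-fold above Rag2, with an interval of 48.3 to 143, and the ratio was 78.1 by coding length and 36.6 by the exon bases of 1 transcript only. The transcripts of B230118H07Rik share 0.503% of the Rag1 stretches of 50 bases and 4.71% of those of Rag2. The library kit did not mark strand, so reads of overlapping genes on opposite strands cannot be told apart.

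**Figure D2:**
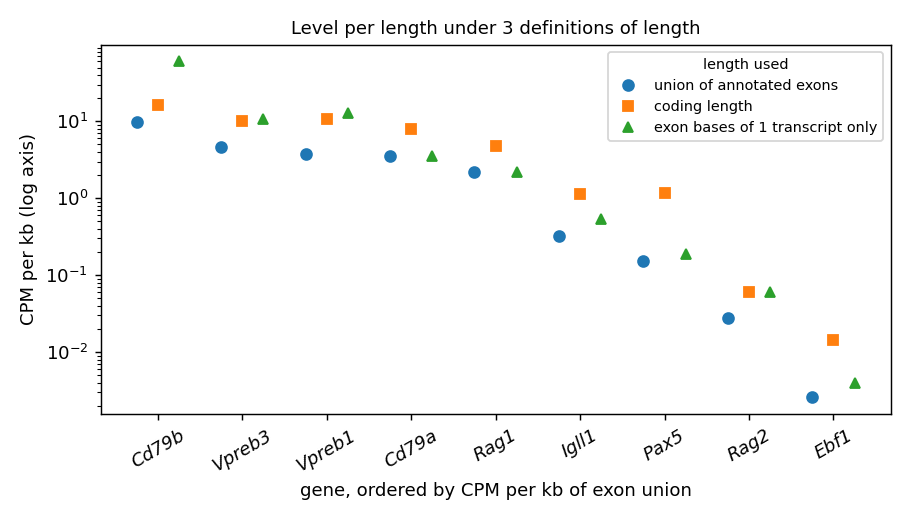
Level per kb of the 9 B-lineage genes (log axis), with the union of annotated exons, the coding length or the exon bases of 1 transcript only as length. Cd79b leads at 9.89 CPM per kb of exons and Ebf1 is last at 0.0026, and these ends of the order are the same with each length.

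In order of CPM per kb of exons the members were Cd79b, Vpreb3, Vpreb1, Cd79a, Rag1, Igll1, Pax5, Rag2 and Ebf1, from 9.89 down to 0.0026. Above 1 CPM per kb were 5 of them, and the share of all genes above that level was not computed. Neighbours in the middle of the order lay close: Vpreb3 stood at 4.57, Vpreb1 at 3.81 and Cd79a at 3.58 CPM per kb. By coding length Vpreb1 (10.7) came before Vpreb3 (10.1) and Pax5 (1.16) before Igll1 (1.12). The spread between livers is unknown, and no order between neighbours was tested.

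The low values of Rag2 and Ebf1 were set beside a property of the gene models. For each gene, the share of exon bases that belong to only 1 annotated transcript was computed from GENCODE M21. Among 15579 protein-coding genes with more than 1 transcript, the level rose with that share (Spearman's rho across genes 0.336, a description over genes of the same 12 libraries). The median was -2.71 on the log2 CPM scale, the value without reads, where under 10% of exon bases belonged to 1 transcript (1586 genes, of which 50.6% had no read). It was 0.14 at 40 to 60% (3576 genes) and 3.40 at 80 to 100% (1787 genes, of which 9.68% had no read). The 3116 genes with a single transcript had a median of -1.98, so they did not continue the rise.

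Against this background the members fell on both sides. Rag2 has 2 transcripts with 45.8% of its exon bases in 1 of them, Ebf1 has 7 with 64.9%, Igll1 has 2 with 59.9% and Pax5 has 20 with 81.4%. Rag2 (-2.02), Ebf1 (-2.49), Igll1 (-0.23) and Pax5 (0.59) all lay under the median log2 CPM of genes with a like share. Cd79b, Vpreb1 and Vpreb3, with 16.5, 29.8 and 42.4%, lay above it at 3.84, 2.24 and 2.03. Rag1 and Cd79a have 1 transcript each. The part of read assignment in the levels was not tested, and a low value here does not show that a gene was silent. Genes known from fetal liver were also near 0: Hnf4a, a hepatocyte transcription factor, had 0 reads (a floor of 3 reads over all livers, not the Poisson interval used above, is 0.0190 CPM), and Kit, the stem cell factor receptor, had 1. S100a9 had 2 reads beside 75258 of S100a8, although the proteins form a complex in granulocytes. The share of exon bases in only 1 transcript was 9.78% for Hnf4a, 37.7% for Kit and 2.49% for S100a9. Each share is lower than those of Rag2 and Ebf1, so these genes are not matched to them.

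**Figure D3:**
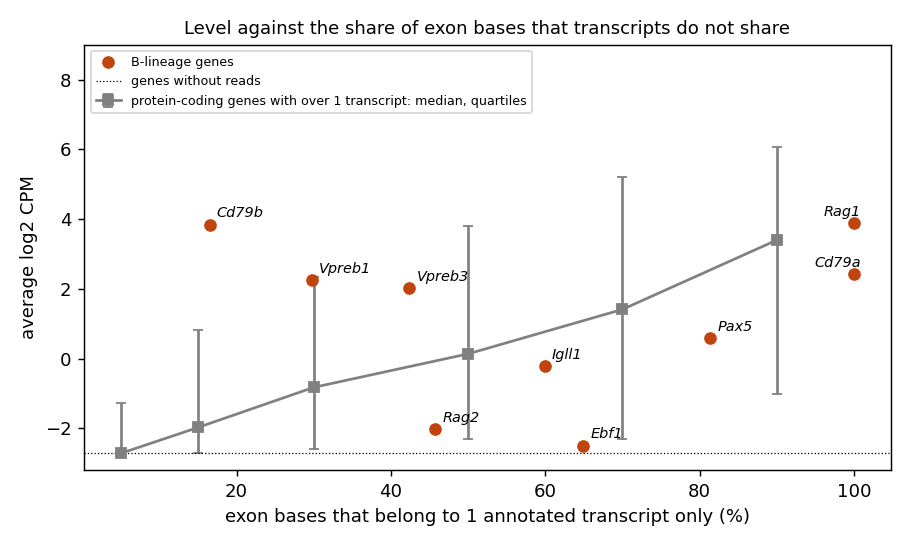
Average log2 CPM against the percentage of exon bases that belong to 1 annotated transcript only. Grey squares and bars are medians and quartiles of protein-coding genes with more than 1 transcript and climb from -2.71 to 3.40; red points are the B-lineage genes, with Rag2 and Ebf1 close to the dotted line of genes without reads.

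Of 8 lymphoid priming and upstream factors, which act ahead of B-lineage commitment, 6 passed 1 CPM. Bcl11a, a repressor needed for early lymphoid cells, was measured at 57.3 CPM and Il7r, the interleukin-7 receptor chain, at 0.178 CPM. Tcf3, the gene of the E2A proteins, was the 1 factor without reads. In whole liver the reads of these factors need not come from lymphoid cells. Of 5 niche ligands, 2 passed. The highest was Cxcl12, the chemokine that holds B-lineage precursors in their niche, at 111 CPM. The lowest was Kitl, stem cell factor, at 0.0510 CPM. Il7, the cytokine that mouse B-lineage progenitors depend on, was measured at 0.0822 CPM.

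Downstream of the pre-B-cell receptor, 2 of 7 signalling genes passed 1 CPM, and 5 passed 0.5 CPM. The kinase gene Btk was measured at 85.0 CPM and the kinase gene Syk at 0.134 CPM. Of 10 genes for the end joining that completes V(D)J recombination and its cofactors, 8 passed. Hmgb2, a DNA-bending cofactor, was the highest at 197 CPM. Xrcc6, the Ku70 gene, did not pass, at 0.325 CPM with 51 reads. Dntt, which adds bases at the joints and is little used in fetal B cells, had no reads. Many of these genes serve every cell or other blood lineages, so their reads need not come from B-lineage cells.

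Of 8 other early B-lineage genes, 2 passed 1 CPM. The transcription repressor gene Bach2 was measured at 18.3 CPM and the coactivator gene Pou2af1 at 7.40 CPM, while Fcrla had 2 reads (0.0128 CPM), and Cd72 and Irf4 had none. None of 6 immunoglobulin constant genes has a row in the table, so their levels are not analysed here.

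Gene lists of other cells were used to place the members in the tissue. The listed genes need not be particular to those cells. Of 7 mature B cell genes 1 passed 1 CPM: the adaptor gene Bank1 was measured at 1.99 CPM, whereas Cr2 had 1 read and Fcer2a and Cd40 had none. Of 11 T cell genes none passed. Tcf7 was measured at 0.646 CPM and Cd8b1 at 0.0063 CPM, and Cd8a and Themis had no reads. Of 5 NK cell genes 1 passed, Nkg7 at 1.45 CPM, with Eomes at 1 read and Ncr1 and Klrb1c at none. Plasmacytoid dendritic cell genes had 2 of 4 above 1 CPM, which does not show that such cells were present. Irf8 was measured at 44.4 CPM and Ccr9 at 0.323 CPM, and Siglech had no reads. T-cell progenitors use Rag1 too, and in whole liver the cells that gave the Rag1 reads cannot be told apart. Stem and progenitor genes had 2 of 7 above 1 CPM and 0 above 2 CPM. Meis1 was measured at 1.66 CPM and Kit at 0.0064 CPM, and Ly6a had no reads.

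**Figure D4:**
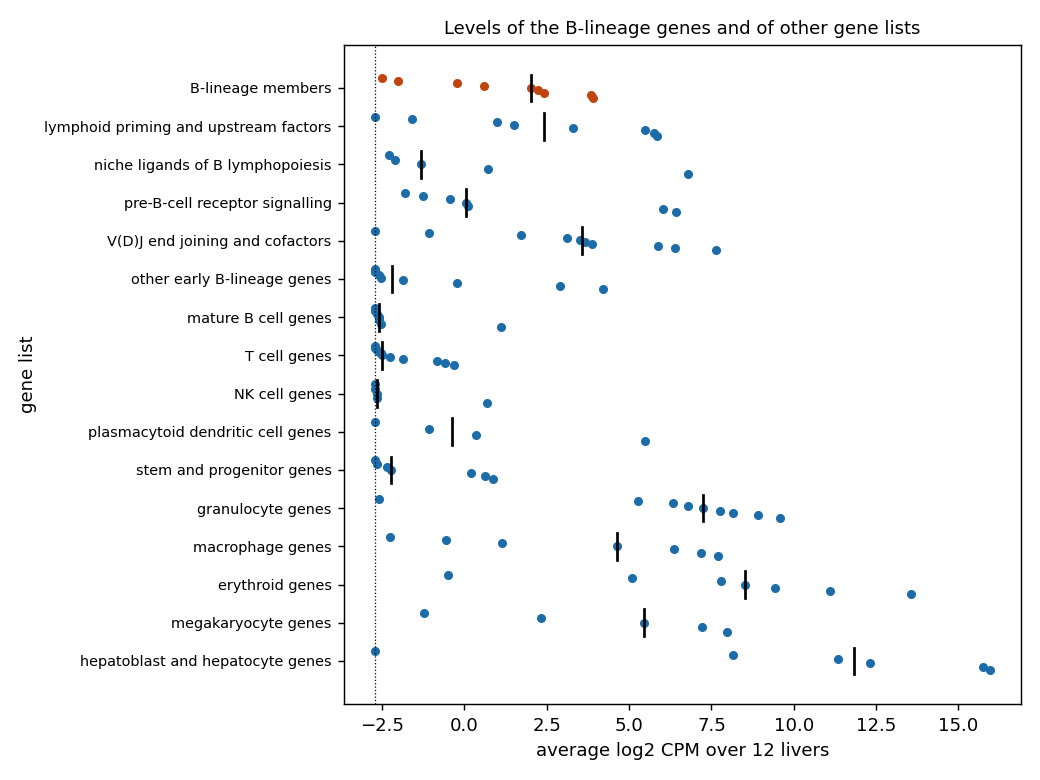
Average log2 CPM over 12 livers of the B-lineage genes (red) and of the genes of 15 other lists with rows (blue); black bars are list medians and the dotted line is the value of genes without reads. T cell, NK cell and mature B cell genes lie mostly near that line, and hepatocyte, erythroid and granulocyte genes reach the right.

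The tissue label was checked with the main cell types of fetal liver. Hepatocyte genes passed 1 CPM in 5 of 6 cases, with albumin (Alb) at 63314 CPM and transferrin (Trf) at 287 CPM. Erythroid genes passed in 6 of 7, with Slc4a1, the red cell anion exchanger, at 12037 CPM and Alas2 at 0.552 CPM. The 9 B-lineage genes together came to 44.7 CPM. Granulocyte genes passed in 8 of 9, with myeloperoxidase (Mpo) at 758 CPM, macrophage genes in 5 of 7, with Marco at 208 CPM and Cd68 at 0.0567 CPM, and megakaryocyte genes in 4 of 5, with Ppbp at 251 CPM and Gp1bb at 0.272 CPM.

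Promoter windows of RefSeq (GRCm38.p6, 250 bases before to 50 after the start) were matched to 8 of the 9 members, and Ebf1 has 2 of the 9 windows. Cd79b has none. Both strands were searched, and positions count back from the RefSeq start. For Cd79a, Vpreb1, Vpreb3 and Ebf1 that start lies inside the GENCODE M21 gene, whose positions are given above. CACCTG occurred in 4 windows, of Cd79a (-154), Rag1 (-135), Vpreb1 (-88) and Igll1 (-8), and in 20.2% of all 32851 promoter windows. The other E-box, CAGCTG, occurred in Rag1 (-128) and Igll1 (-158), and in 16.3% of all windows. The RUNX core TGTGGT occurred in 4 member windows and in 16.8% of all, with a pair of matches in Rag1 (-81 and -67). The ETS core GGAAGT occurred in 4 and in 23.8% of all. The EBF core CCCNNGGG occurred in 1 member window, that of Igll1 (-231), and in 13.7% of all. The octamer ATGCAAAT occurred in Vpreb3 (-45) alone among the members and in 1.74% of all windows, and TATAAA in no member window and 13.6% of all. Both Rag2 and Pax5 had no match to any of the 7 motifs in these windows. A match is a description of letters, not a bound site.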

How the data were processed

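PolyA RNA of 12 whole fetal livers, 6 for each maternal diet, was sequenced on an Illumina instrument. Per the labels and the methods of the study, reads were aligned to mm10 with Subread 1.3.6-p1 (the submitters' processing notes also name cutadapt 1.2.1), genes were annotated with biomaRt, and edgeR compared the diets. The tool that counted reads per gene and the annotation release are not given in the sources used here. The authors deposited 1 table with an average log2 CPM per gene over all livers, which was used here. Its 8 other columns hold the authors' own comparison of the diets (log2 fold changes, p-values, adjusted p-values and signed fold changes, each with a common and a tagwise dispersion) and were not used. The table used holds no values of single livers, so the planned edgeR test of diet on counts was not run.

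The CPM of genes without reads (0.152) was subtracted, and reads were read back with a prior count of 2. In simulated data the median error of this step was 0.424% for 333 genes with up to 6 reads and 0.260% for 800 genes with more. The simulation used the same prior count, so this error does not check that assumption. Its library sizes and dispersion were set in advance, not taken from these livers. Intervals of 95% are exact Poisson intervals on the rounded reads, and those of ratios are exact binomial intervals. For positions, exon unions and coding lengths, 21063 symbols were matched to GENCODE M21, which uses GRCm38 as mm10 does. Spi1 was read from its older symbol Sfpi1. The members and gene lists were chosen with earlier results of these data known. All 9 members are named, and of each other list the genes with the highest and lowest CPM among those with reads and all genes without reads. A gene was left out of each of the lists of pre-B-cell receptor signalling and of stem and progenitor genes and is not reported here. Vpreb2 is named as the paralog of Vpreb1, and Il7, Pou2af1 and S100a8 were named after their values were seen. Scripts ran in Python 3.11.15 (scipy 1.17.1, pandas 2.3.3, numpy 2.4.6, matplotlib 3.10.9).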

Additional observations from a re-analysis of the deposited data

How the results depend on the processing

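The count of members above the threshold was 6 at 1 CPM, 7 at 0.5 CPM and 5 at 2 CPM, and 6 without subtracting the value of genes without reads. Without that subtraction the levels of Igll1, Rag2 and Ebf1 lay above their counting intervals. Among the other lists, the count above 0.5 CPM was 5 in place of 2 for pre-B-cell receptor signalling and 2 in place of 0 for T cell genes. The count above 2 CPM was 1 in place of 2 for niche ligands and for plasmacytoid dendritic cell genes, 0 in place of 1 for mature B cell and NK cell genes, and 0 in place of 2 for stem and progenitor genes. Above 1 CPM per kb were 5 members by exon union, 7 by coding length and 5 by the exon bases of 1 transcript only, a length chosen after seeing the data. No share over all genes was computed for these counts. Every member level in reads scales with the prior count assumed (2, with 1 and 0.25 as alternatives). In the 150 bases before the start, the EBF core matched 0 member windows in place of 1, CAGCTG 1 in place of 2 and CACCTG 3 in place of 4. The alternatives planned for the diet comparison (leaving out each liver, other size factors, no filter) were not run, because they need values of single livers. No paired analysis was possible because the table used gives no value per liver and the labels number no pairs. Depth limits Ebf1 and Rag2, which rest on 4 and 15 reads.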

Other observations

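Of the Ku subunits that hold broken DNA ends, Xrcc5 was measured at 83.6 CPM and Xrcc6 at 0.325 CPM, and the ligase gene Lig4 and its partner gene Xrcc4 were measured at 11.1 and 14.5 CPM. Of the complement genes of macrophages, C1qa was measured at 82.4 CPM and C1qb at 146 CPM, and Csf1r, the receptor on which macrophages depend, was measured at 0.532 CPM. Blnk, the adaptor gene of the pre-B-cell receptor, was measured at 0.936 CPM from 148 reads. The cytokine receptor gene Flt3 was measured at 9.71 CPM. These genes were named after their values were seen, and no test was made.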
